A study of Mus musculus with 4 samples.

Results

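The Notch pathway of mouse neural progenitor cells (NPCs) was examined through 10 genes, chosen by symbol as members of the pathway. They are the receptors Notch1, Notch2 and Notch3, the ligands Jag1 and Dll1, and the target genes Hes1, Hes5, Hey1, Hey2 and Heyl. All 10 were found among the 21862 gene symbols that each file listed once. RNA sequencing was performed on N31 cells, an NPC line that was obtained by differentiating iPSCs and that carries Dox-inducible reprogramming factors (OKMS), and on N31 cells that expressed the short hairpin RNA shSrf#1. This hairpin is directed against Srf, the serum response factor, and was delivered with a retroviral vector followed by puromycin selection. The former cells are called control NPCs and the latter Srf-knockdown NPCs here, and no control vector is given for the former, so the hairpin and the viral infection and selection cannot be told apart. Both were grown without the factors EGF and bFGF on matrices coated with type I collagen, with a stiffness of 0.5 kPa, which is soft like brain, or 12 kPa, which is hard. The 4 conditions had 1 library each, so the differences below could not be tested against replicates and carry no p-value.

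Notch receptors are cell surface proteins that bind Jag and Dll ligands on neighbouring cells. After ligand binding, Adam10 and then gamma-secretase cut the receptor, and its intracellular part enters the nucleus, where it joins the DNA-binding protein Rbpj and Maml coactivators and activates genes such as the Hes and Hey family. Hes and Hey proteins are repressors. In neural progenitors they hold back neuronal differentiation, and the pathway is known for maintaining the progenitor state.

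The deposited values are FPKM, a read count scaled both to transcript length and to library size, so that levels may be compared between genes. The depth of the libraries, estimated from the steps between low values, was between 24100000 and 62300000 reads, with the Srf-knockdown libraries deeper than both control libraries. An interval given here is a 95% interval from the estimated reads and covers counting error only. The FPKM of Srf was 34.4 and 35.6 in the control libraries (0.5 and 12 kPa) and 16.2 and 17.4 in the knockdown libraries. Of 10 NPC markers, 5 had an FPKM above 2 in all 4 libraries, among them Nes (51.6, 36.1, 16.4 and 15.5 in the order control 0.5 kPa, control 12 kPa, Srf knockdown 0.5 kPa and Srf knockdown 12 kPa) and Sox2 (4.29, 5.49, 19.1 and 20.4), which is also one of the Dox-inducible factors. The listed markers Sox1 and Olig2 were at 0 in all 4 libraries, and Fabp7 was at 0 in both control libraries. Of 9 fibroblast markers, 7 were above 2 in all libraries, with a summed FPKM of all 9 between 2539 and 2757. The study states that NPCs express mesenchymal genes. The label of NPC is used here as the name given by the submitters.

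In the control NPCs, 5 of the 10 genes were well expressed: Hes1 had the highest FPKM, followed by Notch1, Notch2, Jag1 and Notch3. These 5 genes had an FPKM above 2 in all 4 libraries, which is the minimum used here for counting genes as higher or lower and which 10489 genes passed. The other 5 (Dll1, Hes5, Hey1, Hey2 and Heyl) were below this minimum in every library, and Hes5 was listed at 0 throughout. In Srf-knockdown NPCs, Jag1 and Notch1 were lower and Notch3 was higher than in control NPCs on both matrices. For these 3 genes the differences between the matrices were smaller than those between the populations.

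**Figure D1:**
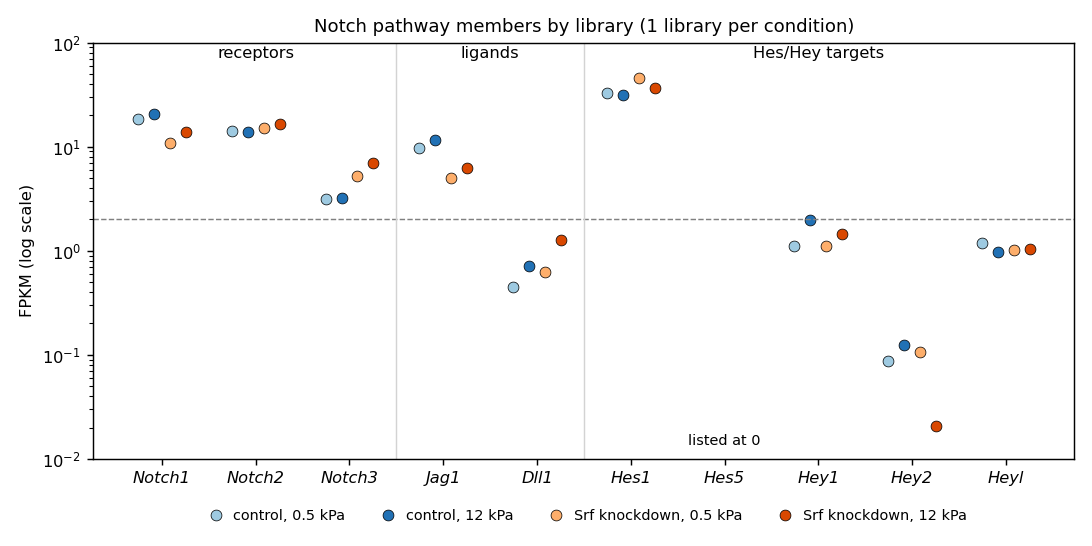
FPKM (log axis) of the 10 genes in the 4 libraries, 1 point per library and with no error bars because each condition had 1 library. The dashed line marks the minimum FPKM of 2, above which Notch1, Notch2, Notch3, Jag1 and Hes1 lie in all libraries, and Hes5 is listed at 0 and has no point.

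Among the receptors, Notch1 (chromosome 2 of mm10, 26457902 to 26503822), the receptor most studied in neural progenitors, gave an FPKM of 18.4 in control NPCs at 0.5 kPa, 20.6 in control NPCs at 12 kPa, 10.8 in Srf-knockdown NPCs at 0.5 kPa and 14 in Srf-knockdown NPCs at 12 kPa. Both control libraries were above both knockdown libraries. The log2 ratio of knockdown to control was -0.77 at 0.5 kPa (interval -0.83 to -0.71), or 1.70-fold lower, and -0.56 at 12 kPa (-0.61 to -0.51), or 1.48-fold lower. These values rest on an estimated 4377 to 7814 reads per library. Within each cell population Notch1 was higher on the hard matrix, with a log2 ratio of 12 to 0.5 kPa of 0.16 (0.10 to 0.22) for control and 0.37 (0.31 to 0.42) for Srf-knockdown NPCs.

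Notch3 (chromosome 17, 32120820 to 32166896), a receptor best known from the mural cells of blood vessels, went the other way. Its FPKM in the control libraries was 3.13 at 0.5 kPa and 3.20 at 12 kPa, and the knockdown libraries gave 5.21 and 6.93. Both knockdown libraries were above both control libraries, and the control libraries differed by less than their counting error (log2 ratio 0.03, interval -0.12 to 0.19). In Srf-knockdown NPCs Notch3 was higher on the hard matrix, with a log2 ratio of 0.41 (0.33 to 0.49). The log2 ratio of knockdown to control was 0.74 at 0.5 kPa (0.61 to 0.86), or 1.67-fold higher, and 1.11 at 12 kPa (0.99 to 1.24), or 2.16-fold higher. Since Notch3 marks mural cells, 8 markers of these cells were examined beside it. Of these, 4 were above the minimum, and the summed FPKM of all 8 was 81.6 and 85.6 for control and 43.8 and 49.7 for Srf-knockdown NPCs. Mcam took most of this sum in control NPCs (51.8 and 57.7, against 7.88 and 9.24 in Srf-knockdown NPCs), whereas Pdgfrb was higher in Srf-knockdown NPCs (17.6 and 18.2 against 26.7 and 30). Kcnj8, Abcc9 and Higd1b, which define pericytes, were at 0 in both control libraries and at or below 0.0536 in the knockdown libraries. The part of mural cells in the values of Notch3 was not tested. In bulk RNA, a difference in the number of cells of a type and a difference in RNA per cell cannot be told apart.

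Notch2 (chromosome 3, 98013538 to 98150367) gave an FPKM of 14.3 and 13.8 for control and 15.3 and 16.5 for Srf-knockdown NPCs at 0.5 and 12 kPa. The knockdown libraries were again above the control libraries, but by less than for Notch3 (log2 ratio 0.10 at 0.5 kPa and 0.26 at 12 kPa), and it was within 1.5-fold on both matrices. Notch4, the remaining receptor, which was not among the 10 genes, had an FPKM of 0.758, 0.946, 1.02 and 1.44 in the same order. The summed FPKM of the 4 receptors was 36.6 and 38.5 for control and 32.4 and 38.9 for Srf-knockdown NPCs, and these ranges overlapped. The makeup of this sum was less alike. Notch1 held 50.4% and 53.5% of it in the control libraries against 33.4% and 36.0% in the knockdown libraries. Notch3 held 8.54% and 8.31% against 16.1% and 17.8%. Notch2 was the second receptor by level in control NPCs (39.0% and 35.7%) but the first in Srf-knockdown NPCs (47.3% and 42.5%).

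**Figure D2:**
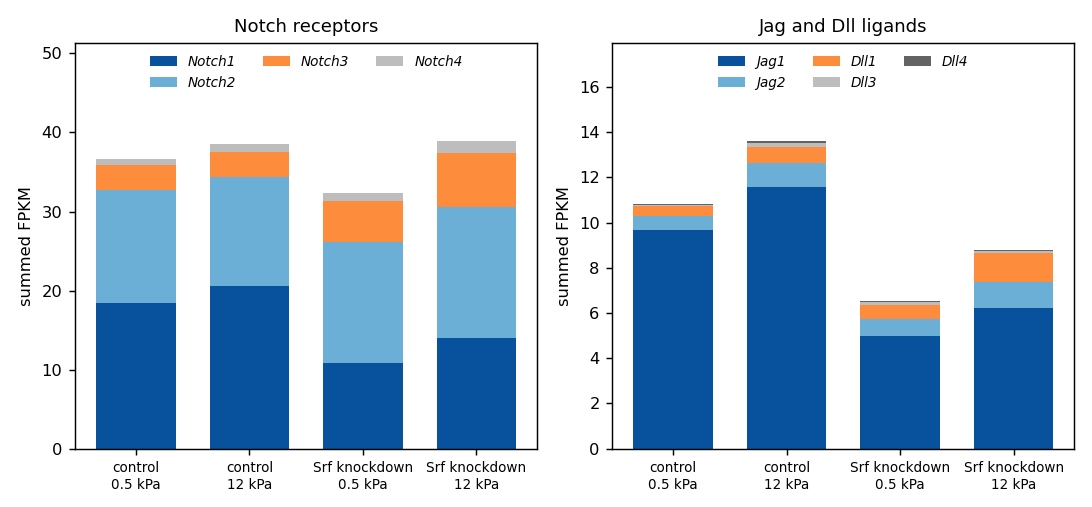
Summed FPKM of the 4 Notch receptors (left) and of the 5 Jag and Dll ligands (right) in each library, stacked by gene, with 1 library per bar and no error bars. The receptor sums lie between 32.4 and 38.9 in all libraries, with Notch1 as the largest segment in both control libraries and Notch2 in both knockdown libraries, and the ligand sums are 10.8 and 13.6 for control and 6.52 and 8.77 for Srf-knockdown NPCs.

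Of the ligands, Jag1 (chromosome 2, 137081451 to 137116520) gave an FPKM of 9.69 in control NPCs at 0.5 kPa, 11.6 in control NPCs at 12 kPa, 4.99 in Srf-knockdown NPCs at 0.5 kPa and 6.21 in Srf-knockdown NPCs at 12 kPa. Both knockdown libraries were below both control libraries, and in each population the hard matrix gave the higher value. The log2 ratio of knockdown to control was -0.96 at 0.5 kPa (interval -1.07 to -0.85), or 1.94-fold lower, and -0.90 at 12 kPa (-1.0 to -0.81), or 1.87-fold lower. The log2 ratio of 12 to 0.5 kPa was 0.26 (0.16 to 0.36) for control and 0.31 (0.21 to 0.42) for Srf-knockdown NPCs. Among the 5 members above the minimum, Jag1 thus had the largest difference below control and Notch3 the largest above it, on both matrices.

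Dll1 (chromosome 17, 15367354 to 15376932), the ligand that newborn neurons display to progenitors, gave an FPKM of 0.453 and 0.717 for control and 0.630 and 1.28 for Srf-knockdown NPCs at 0.5 and 12 kPa. These values rest on an estimated 44.6, 58.5, 95.9 and 269 reads. The hard matrix gave the higher value in both populations, and the ranges of control and knockdown overlapped. The log2 ratio of 12 to 0.5 kPa was 0.66 (0.05 to 1.23) for control and 1.02 (0.68 to 1.37) for Srf-knockdown NPCs. Among the 864 genes with an FPKM between 0.4 and 2 in all libraries, a range set after the values were seen, the 95th percentile of this ratio was 0.77 for control and 0.67 for Srf-knockdown NPCs, so Dll1 lay within the central range of such genes for control and above it for Srf-knockdown NPCs. The ratio of knockdown to control was 0.48 (-0.06 to 1.01) at 0.5 kPa, where counting error does not set it apart from 0, and 0.83 (0.43 to 1.28) at 12 kPa, where the 95th percentile of these low genes was 1.24.

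Jag1 gave 89.4% and 85.1% of the summed FPKM of the 5 Jag and Dll ligands in the control libraries, but 76.6% and 70.7% in the knockdown libraries. The sum was 10.8 and 13.6 for control and 6.52 and 8.77 for Srf-knockdown NPCs, and the ranges did not overlap. Jag2, a close relative of Jag1, had an FPKM between 0.621 and 1.16. Dll3 and Dll4 had an FPKM of at most 0.171 and 0.0844.

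Of the targets, Hes1 (chromosome 16, 30065357 to 30067796), the Hes repressor found in many tissues, was the member with the highest FPKM in every library. It was 32.5 in control NPCs at 0.5 kPa, 31.3 in control NPCs at 12 kPa, 46.2 in Srf-knockdown NPCs at 0.5 kPa and 36.3 in Srf-knockdown NPCs at 12 kPa. In control NPCs at 0.5 kPa this level was at the 82.1 percentile of all genes listed. Both knockdown libraries were above both control libraries, by a log2 ratio of 0.51 (0.41 to 0.61), or 1.42-fold, at 0.5 kPa and 0.22 (0.11 to 0.32), or 1.16-fold, at 12 kPa. Hes1 stayed within 1.5-fold of control on both matrices. Unlike Notch1, Notch3 and Jag1, it was lower on the hard matrix in Srf-knockdown NPCs (log2 ratio -0.35, interval -0.42 to -0.27), and the control libraries differed by less than their counting error (-0.05, -0.18 to 0.07).

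The remaining targets were low. Hey1 (chromosome 3, 8663359 to 8667038) gave an FPKM of 1.11 and 1.96 for control and 1.1 and 1.45 for Srf-knockdown NPCs at 0.5 and 12 kPa, from an estimated 64.9 to 181 reads. The hard matrix gave the higher value in both populations, with a log2 ratio of 0.82 (0.35 to 1.30) in control, above the 95th percentile of 0.77 for low genes, and 0.40 (0.03 to 0.76) in Srf-knockdown NPCs, within it. Heyl (chromosome 4, 123233556 to 123249870) gave an FPKM of 1.18, 0.975, 1.02 and 1.03 in the order used above. All 4 of its ratios were within their counting error of 0. Hey2 (chromosome 10, 30832359 to 30842783) gave an FPKM of 0.0877, 0.123, 0.106 and 0.0205, which rest on an estimated 6, 7, 11.2 and 3 reads, and the first 3 libraries differed by less than their counting error. Its log2 ratio of knockdown to control at 12 kPa was -2.59 with an interval of -5.17 to -0.46. Hes5 (chromosome 4, 154960626 to 154962372), the Hes gene most typical of neural stem cells, was at 0 in all 4 libraries. At these depths a count of 0 allows an FPKM of up to 0.0960, 0.116, 0.0621 and 0.0449 in the same order (3 reads per library), and none of 12 housekeeping genes looked up was at 0 in any library. The smallest FPKM among them was 0.316 (Hprt), and that of the other 11 was at least 14.4. Genes at such levels cannot show whether a low gene such as Hes5 was missed. Of all 21862 symbols, 6006, 6132, 5432 and 5078 were at 0 in the same order of libraries.

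**Figure D3:**
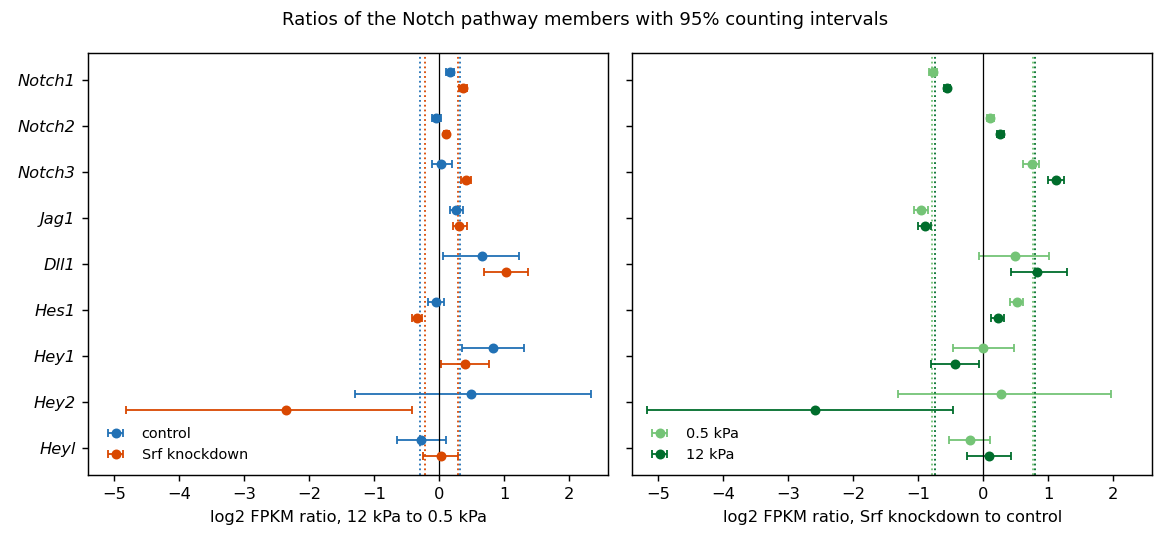
Log2 FPKM ratio of 12 to 0.5 kPa in control and Srf-knockdown NPCs (left) and of Srf knockdown to control at 0.5 and 12 kPa (right) for 9 of the 10 genes (Hes5 was at 0), with 95% counting intervals as bars and the 5th and 95th percentiles over the 10489 genes above the minimum as dotted lines of the same colour. On the left, Notch1, Notch3 and Jag1 lie above the 95th percentile and Hes1 below the 5th percentile in Srf-knockdown NPCs. On the right, Jag1 lies below the 5th percentile at both stiffnesses and Notch3 above the 95th percentile at 12 kPa. Of the genes below the minimum, Dll1, Hey1 and Hey2 also lie beyond a dotted line in some comparisons. The wide bars of Hey2 come from 3 to 11.2 reads. The plotted ratios are not centred on GC content.

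The promoter windows of the members are shown because the members that differed most between control and Srf-knockdown NPCs could be read for the letters that Srf and Rbpj bind, and because Hes5 was at 0 here. RefSeq windows (GRCm38.p6, the assembly of mm10) were matched for 7 of the 10 genes, and Hes1, Hey1 and Heyl were not matched. The 250 bases before the start were searched on both strands for TGGGAA, the core of the Rbpj motif, for the CArG box, to which Srf binds, and for CACNAG, the N-box to which Hes proteins bind. Of 32851 windows of this length, 21.6% held TGGGAA, 1.47% a CArG box and 36.7% an N-box. Neither TGGGAA nor a CArG box was found in the windows of Notch1, Notch2, Notch3, Jag1 and Dll1, which says only that these letters are not there. An N-box was found once in Notch1 and Notch2 and at 2 places in Notch3, and the other motifs searched were not in those windows. Hey2 held TGGGAA once. The window of Hes5 held TGGGAA at 2 places and a CArG box. This window precedes a start that lies inside the RefSeq gene, whose interval opens farther upstream, so the letters are within the locus given above. The runs of 30 bases around the matches are given with the motif in capitals, 5′ to 3′ on the plus strand.
Hes5, chr4:154960685-154960714 (TGGGAA on the minus strand): agggcgagcgcgTTCCCAcagcccggacat
Hes5, chr4:154960829-154960858 (TGGGAA on the plus strand): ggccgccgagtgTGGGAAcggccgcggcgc
Hes5, chr4:154960880-154960909 (CArG box): gctgcccgcgCCTATATAGGgctggcgtgc
The bases upstream of Notch1, Notch3 and Jag1, which were above the minimum and passed 1.5-fold between Srf-knockdown and control NPCs on at least 1 matrix, are given on the strand of the gene, which is the minus strand for each, and end at the base before the RefSeq gene. No TGGGAA and no CArG box stands in them, so no base is in capitals.
Notch1, chr2:26503823-26504072: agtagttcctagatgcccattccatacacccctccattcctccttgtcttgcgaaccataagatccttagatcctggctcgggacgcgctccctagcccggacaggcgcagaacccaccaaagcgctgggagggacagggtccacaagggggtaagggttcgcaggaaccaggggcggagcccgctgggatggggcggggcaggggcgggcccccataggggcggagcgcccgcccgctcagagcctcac
Notch3, chr17:32166897-32167140: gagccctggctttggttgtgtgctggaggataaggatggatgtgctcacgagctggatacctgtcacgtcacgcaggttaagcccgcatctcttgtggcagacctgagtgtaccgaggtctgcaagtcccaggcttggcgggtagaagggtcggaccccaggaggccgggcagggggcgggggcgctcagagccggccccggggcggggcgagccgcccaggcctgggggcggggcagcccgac
Jag1, chr2:137116521-137116770: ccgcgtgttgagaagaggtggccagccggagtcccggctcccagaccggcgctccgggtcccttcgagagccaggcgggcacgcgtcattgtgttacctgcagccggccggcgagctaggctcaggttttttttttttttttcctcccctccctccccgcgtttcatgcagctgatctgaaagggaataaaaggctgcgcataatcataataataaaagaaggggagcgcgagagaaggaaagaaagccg
A match is a description of the letters and not a bound site. Hes5 was at 0 in every library, so the letters in its window stand beside no measured difference.

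The order of the levels was the same in both control libraries for the 5 genes above the minimum (Hes1, Notch1, Notch2, Jag1, Notch3) and the same in both knockdown libraries (Hes1, Notch2, Notch1, Notch3, Jag1). Notch1 and Notch2 changed places between the populations, and so did Jag1 and Notch3. Within each library the counting intervals of these neighbours were apart, except for Notch3 and Jag1 in Srf-knockdown NPCs at 0.5 kPa, where the FPKM intervals were 4.98 to 5.45 and 4.72 to 5.28. On the 12 kPa matrix they were 6.70 to 7.17 and 5.94 to 6.48. These levels are not centred on GC content, a step described below. With it, the log2 ratios of knockdown to control at 0.5 and 12 kPa were 0.54 and 0.78 for Notch3. For Jag1 they were -0.92 and -0.84. Set on the control levels, these ratios no longer put Notch3 above Jag1, so their change of places is given for values without centring only. Among the low genes, Heyl (0.998 to 1.39) and Hey1 (0.860 to 1.42) overlapped in control NPCs at 0.5 kPa, and they did so in Srf-knockdown NPCs at 0.5 kPa as well (0.882 to 1.17 and 0.902 to 1.35). The intervals of Dll1 overlapped those of Heyl in control NPCs at 12 kPa (0.540 to 0.919 and 0.795 to 1.18) and those of Hey1 and Heyl in Srf-knockdown NPCs at 12 kPa (1.13 to 1.44, 1.25 to 1.68 and 0.912 to 1.16).

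To set these differences against all genes, a gene above the minimum was counted as higher or lower beyond 1.5-fold between Srf-knockdown and control NPCs, and beyond 1.1-fold between matrices, the threshold of the study's methods. At 0.5 kPa, 1 of the 5 members above the minimum was higher in Srf-knockdown NPCs (Notch3), where 9.19% of all 10489 genes were, and 2 were lower (Notch1 and Jag1), where 9.28% of all genes were. At 12 kPa, 1 was higher (Notch3), where 10.2% of all genes were, and 1 was lower (Jag1), where 8.88% of all genes were. On both matrices Notch3 was higher, as were 6.63% of all genes, and Jag1 was lower, as were 6.17%. With 5 genes such counts are too few to set the members apart from the rest. Between populations, 73.1% of all genes at 0.5 kPa and 73.6% at 12 kPa differed by more than 1.1-fold. The share of all genes with both knockdown libraries above or below both control libraries was not counted. Such a separation is therefore not read as a trait of the genes named here. Over all genes, the 5th and 95th percentiles were log2 ratios of -0.79 and 0.77 at 0.5 kPa. At 12 kPa they were -0.74 and 0.79. Without centring on GC content, Jag1 lay outside them on both matrices, Notch3 at 12 kPa, and Notch1 on neither. With this centring, described below, Notch1 (-0.90 and -0.79) lay outside them on both matrices and Notch3 (0.54 and 0.78) on neither. The percentiles, and the medians that follow, are without centring. The members' median was 0.10 at 0.5 kPa and 0.22 at 12 kPa, beside 0.01 for all genes in both comparisons.

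Between the matrices, 2 of the 5 were higher at 12 kPa in control NPCs (Notch1 and Jag1), as were 17.9% of all genes, and 0 were lower, where 16.9% of all genes were. In Srf-knockdown NPCs 3 were higher at 12 kPa (Notch1, Notch3 and Jag1), where 17.6% of all genes were, and Hes1 was lower, where 13% of all genes were. The members' median was 0.03 for control and 0.31 for Srf-knockdown NPCs, beside 0.00 and 0.01 for all genes. Notch1 and Jag1 were thus higher at 12 kPa in both populations, as were 535 of all 10489 genes. The ratio of Notch3 was larger in Srf-knockdown than in control NPCs by 0.38 on the log2 scale, and this difference has no replicate to test it. No member above the minimum passed 1.5-fold between matrices in either population. Few genes of any kind did so, with 1.82% of all genes past it for control and 0.782% for Srf knockdown. This absence therefore does not set the 5 members apart from other genes. Over all genes in Srf-knockdown NPCs, -0.22 marked the 5th percentile and 0.29 the 95th. Notch1 (0.37), Notch3 (0.41) and Jag1 (0.31) lay above these bounds, Hes1 (-0.35) below and Notch2 (0.11) within. With the GC centring described below, Notch1, Notch3, Jag1 and Hes1 were at 0.31, 0.33, 0.31 and -0.35. The bounds are without centring. In control NPCs the bounds were -0.30 and 0.32, and all 5 members lay within them. The ratios between matrices and those between populations are made from the same 4 libraries and are not independent of each other.

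The ratio of Srf knockdown to control also moved with the GC content of the transcript. Over 9569 genes with a reference transcript, its median was -0.18 in the tenth of genes with the lowest GC content and 0.22 in the tenth with the highest at 0.5 kPa, and -0.28 and 0.35 at 12 kPa. The transcript of Jag1 has a GC content of 48.8%, that of Hes1 50.7%, Notch2 53.6%, Notch1 57.1% and Notch3 59.6%. Centred on genes of like GC content, the ratios at 0.5 and 12 kPa were 0.54 and 0.78 for Notch3, below the 1.5-fold threshold at 0.5 kPa, and -0.90 and -0.79 for Notch1, beyond it on both matrices. For Jag1 they were -0.92 and -0.84. The direction of each of these 3 genes was the same with and without this centring.

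The other genes of the pathway were taken from a list of 66, of which 46 were above the minimum. At 0.5 kPa, 4 of the 46 were higher in Srf-knockdown NPCs and 4 lower (8.7% each, beside 9.19% and 9.28% of all genes), and at 12 kPa 7 were higher and 3 lower (15.2% and 6.52%, beside 10.2% and 8.88% of all genes). Those beyond 1.5-fold in the same direction on both matrices were 3 that were higher (Dlk1, Dlk2 and Hes6) and 2 that were lower (Rbpj and Adam10), where 6.63% and 6.17% of all genes were. These calls changed with GC content. Centred on genes of like GC content, the log2 ratios at 0.5 and 12 kPa were 1.83 and 2.11 for Dlk1 and 0.87 and 1.09 for Dlk2, still beyond 1.5-fold on both matrices. They were 0.59 and 0.30 for Hes6, beyond it at 0.5 kPa only, and -0.55 and -0.52 for Rbpj and -0.45 and -0.51 for Adam10, within it on both matrices, whereas Furin, a protease that cuts the receptor before it reaches the surface, was at -0.60 and -0.68, beyond it on both. The median log2 ratio of the 46 genes was 0.06 at 0.5 kPa and 0.11 at 12 kPa. Between matrices, 8 were higher by more than 1.1-fold and 10 lower at 12 kPa in control NPCs (17.4% and 21.7%, beside 17.9% and 16.9% of all genes), and 10 were higher and 2 lower in Srf-knockdown NPCs (21.7% and 4.35%, beside 17.6% and 13% of all genes). Of these, 2 were higher at 12 kPa in both populations (Dner and the glycosyltransferase Rfng) and 1 was lower in both (the glycosyltransferase Lfng). Of all 10489 genes, 535 were higher and 340 lower in both.

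Among the ligands outside the Jag and Dll group, Dlk1, an imprinted gene for a membrane protein that resembles Delta but lacks the domain for activating Notch, had an FPKM of 94.2 and 79.5 for control and 346 and 366 for Srf-knockdown NPCs at 0.5 and 12 kPa. Its log2 ratio of knockdown to control was 1.88 and 2.2. Dlk2, its relative, had an FPKM of 11.2 and 11.2 against 24.5 and 31.0, with log2 ratios of 1.13 and 1.47. For both genes the knockdown libraries were above the control libraries, the opposite direction to Jag1. Dner, a neuronal ligand, was within 1.5-fold at 0.5 kPa (-0.24) and lower at 12 kPa (-0.94), and is named with the values seen.

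In the nuclear complex, all 8 listed genes were above the minimum, and 1 of them was lower on both matrices. This was Rbpj, the DNA-binding protein through which all Notch receptors act, with an FPKM of 48.7 and 44.5 for control and 30.9 and 27.3 for Srf-knockdown NPCs at 0.5 and 12 kPa (log2 ratio -0.65 and -0.71). Maml3, a coactivator, was higher beyond 1.5-fold at 12 kPa only (0.61). The median of the 8 genes was 0.14 and 0.09. Of the 3 receptor-cleaving proteases, Adam10, which makes the first cut after ligand binding, had an FPKM of 87.6 and 97.3 for control and 58.0 and 57.3 for Srf-knockdown NPCs (-0.59 and -0.76). Adam17 and Furin were within 1.5-fold. The ratios in this paragraph are not centred on GC content, under which Rbpj and Adam10 were within 1.5-fold on both matrices and Furin was beyond it on both.

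Of 7 gamma-secretase genes, 6 were above the minimum. Aph1a was higher beyond 1.5-fold at 0.5 kPa (0.77) and Psen2 at 12 kPa (0.75), while Aph1b was lower at 0.5 kPa (-0.74). Aph1b and Aph1c are near-identical copies whose reads can be shared, so their values are uncertain. Psenen had the highest mean FPKM of the group and log2 ratios of -0.07 and 0.21. All 10 corepressors were above the minimum, and Tle1 was lower beyond 1.5-fold at 0.5 kPa (-0.59), whereas Ctbp1, the most abundant, had ratios of 0.18 and 0.36. Of 13 genes of endocytosis and turnover, 11 were above the minimum, of which Mib2 (0.81) and Numbl (0.66) were higher beyond 1.5-fold at 12 kPa, and Dtx3, the most abundant, had ratios of -0.18 and 0.09. Of 5 glycosyltransferase genes, which modify the receptors in the secretory pathway, 4 were above the minimum and 0 passed 1.5-fold, with Poglut1 at -0.36 and -0.48. The ratios in this paragraph are not centred on GC content. Under that centring 3 of the 46 pathway genes were higher beyond 1.5-fold at 12 kPa, with Dlk1 and Dlk2 among them. Most of Maml3, Psen2, Mib2 and Numbl thus did not stay beyond it.

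**Figure D4:**
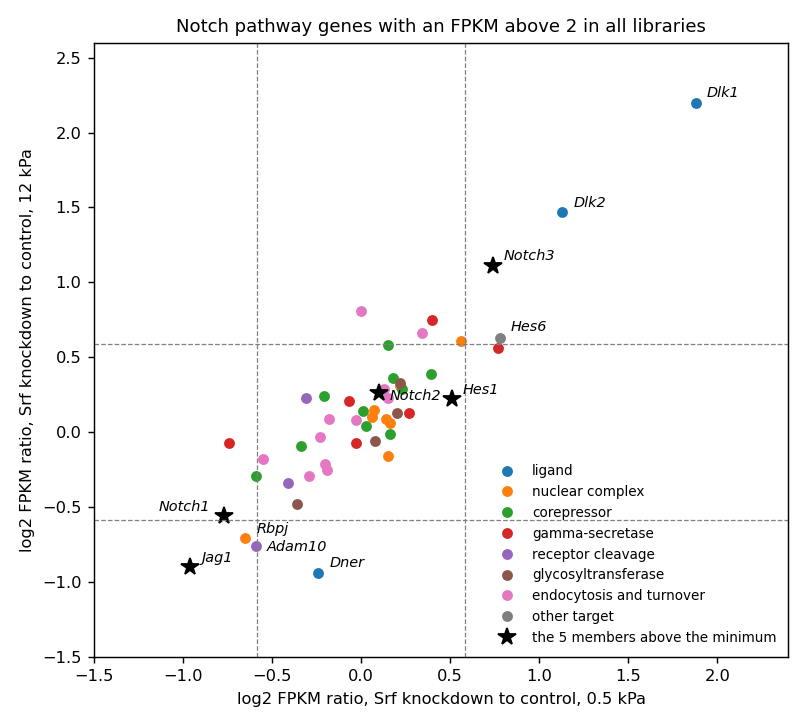
Log2 FPKM ratio of Srf-knockdown to control NPCs at 0.5 kPa (horizontal axis) and 12 kPa (vertical axis) for the 5 members (stars) and 46 other pathway genes (points, coloured by role) above the minimum, with dashed lines at 1.5-fold and 1 library behind each value that enters a ratio. Dlk1, Dlk2, Notch3 and Hes6 lie beyond 1.5-fold at the upper right and Jag1, Rbpj and Adam10 at the lower left. The plotted ratios are not centred on GC content, under which Rbpj and Adam10 were within 1.5-fold on both matrices and Hes6 at 12 kPa.

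Hes6, a Hes relative that opposes Hes1 and promotes neuronal differentiation, was the only gene above the minimum among 6 others listed with the targets. Whether Notch controls it in these cells was not tested. Its FPKM was 10.5 and 12.5 for control and 18.0 and 19.4 for Srf-knockdown NPCs at 0.5 and 12 kPa (log2 ratio 0.78 and 0.63), and the knockdown libraries were above the control libraries. Hes1 and Hes6 together held most of the summed FPKM of the Hes and Hey genes, with 71.4%, 66.4%, 68.9% and 62.0% for Hes1 and 23.0%, 26.6%, 26.9% and 33.1% for Hes6.

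The members above the minimum with the largest mean difference between Srf-knockdown and control NPCs were Jag1 and Notch3, by ratios not centred on GC content. With that centring, the ratios of Notch1 (-0.90 and -0.79 at 0.5 and 12 kPa) were larger in size than those of Notch3 (0.54 and 0.78). For Jag1 and Notch3, the genes with the most similar profile were sought by the distance between log2 FPKM over the 4 libraries. Each profile was centred on its own mean. Of 10488 genes, 28 lay within 0.2 of Jag1, and the nearest were N4bp2 (distance 0.070), Pcdh10 (0.072), a protocadherin, and Enox1 (0.098). Pcdh10 had an FPKM of 31.1 and 35.4 for control and 15.1 and 18.8 for Srf-knockdown NPCs at 0.5 and 12 kPa. Within 0.2 of Notch3 lay 30 genes, and the nearest were Fam43a (0.092), Rgma (0.095), an axon guidance molecule, and Rpl10a (0.097), a ribosomal protein. Rgma had an FPKM of 20.3 and 19.9 for control and 35.3 and 46.4 for Srf-knockdown NPCs. With 4 libraries many genes share such a profile, and the likeness is given as a description.

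Endothelial cells also express Notch pathway genes, and their 8 markers are given for this reason. None of the 8 was above the minimum, Tie1 was at 0 in all libraries, and the summed FPKM was 2.38 and 2.37 for control and 6.55 and 6.42 for Srf-knockdown NPCs, most of it from Emcn (5.29 and 4.92) in the latter. The summed FPKM of 6 neuron markers was 56.7 and 60.2 for control and 123 and 118 for Srf-knockdown NPCs, most of the difference from Stmn2 (19.1 and 18.7 against 64.6 and 61.3) and Map2 (29.9 and 35.1 against 51.7 and 50), while Snap25 was lower in Srf-knockdown NPCs (4.46 and 3.72 against 3.11 and 2.45). The sum of 6 astrocyte markers was 404 and 341 against 194 and 209, nearly all of it Gja1 (397 and 334 against 187 and 199), and Aldh1l1, the other astrocyte marker above the minimum, had an FPKM of 5.68 and 7.09 against 6.77 and 8.96. Rbfox3, a defining marker of mature neurons, was at 0 in all libraries. The summed levels thus rest on few genes each, they differed between Srf-knockdown and control NPCs, and their part in the values of the Notch genes was not tested.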

How the data were processed

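RNA from NPCs in 4 conditions was sequenced, with 1 library per condition. According to the methods and the labels, the authors removed adaptors from the single-end reads (cutadapt 1.9.1), mapped them to mm10 with TopHat2 2.1.0 and Bowtie2 2.2.8 with the GENCODE M14 annotation, kept reads of high mapping quality and calculated expression with Cufflinks 2.2.1. The deposited values are FPKM (called RPKM in the methods) and were used without rescaling. The library kit was stranded, but the strand setting of the counting is not given in the sources used here.

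Of 21997 rows per file, 63 symbols listed more than once were left out. Counts cover the genes whose FPKM exceeded 2 in each of the 4 libraries, and log2 ratios were taken without a pseudocount. No test was possible. Depth was estimated from values under 0.1, and reads of a gene from the median length of its protein-coding reference transcripts minus 200 bases. These lengths and GC contents come from an older annotation (NCBIM37), from which no coordinate was taken. Intervals for ratios are exact binomial ones for the reads of the libraries compared, and those for levels are exact Poisson ones. The calculations were tested on simulated data.

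The members and all gene lists were chosen with earlier results of these data known. All members were named, other pathway genes where they passed 1.5-fold in 1 direction at both stiffnesses or else as the most abundant of their role, and the 3 nearest profiles of the 2 members that differed most. Other pathway genes outside this rule are named where so few passed a threshold that all are given, and they were chosen after their values were seen. The proneural genes of the list are not reported here. Alternatives were thresholds of 1.1, 1.2, 1.5 and 2-fold, other minimum levels, pseudocounts of 0.1 and 1, scaling to the 75th percentile, centring on the median or within 50 bins of GC content, and the longest transcript. Gene coordinates and promoter sequences are from RefSeq (GRCm38.p6), matched by symbol. Calculations ran in Python 3.11.15 (scipy 1.17.1, numpy 2.4.6, matplotlib 3.10.9 and pandas 2.3.3).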

Additional observations from a re-analysis of the deposited data

Results flagged for a closer look

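Hey2 stood out because its values moved in opposite directions in groups that were compared in the same way. Between matrices (12 to 0.5 kPa) its log2 ratio was 0.49 for control but -2.36 for Srf-knockdown NPCs, which differ by 2.86, and its ratio of Srf knockdown to control was 0.27 at 0.5 kPa and -2.59 at 12 kPa, which is the same difference of 2.86 seen from the other side. The values rest on 6, 7, 11.2 and 3 estimated reads, and with 1 library per condition the difference was not tested.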

How the results depend on the processing

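No paired analysis was possible because there was 1 library per condition, and no replicate could be left out. The counts of members past a threshold depended on the threshold and on the minimum level. Between matrices in control NPCs, where the count was 2, it was 0 at 1.2-fold, 1.5-fold and 2-fold, 1 with an FPKM above 5 and 6 without a minimum. Of all genes counted in the same way, 34.7% passed at first and 14%, 1.82%, 0.229%, 31.4% and 50.1% in these settings. In Srf-knockdown NPCs, where it was 4, it stayed 4 at 1.2-fold. It was 0 at 1.5-fold and 2-fold, 2 with an FPKM above 5 and 7 without a minimum. The shares of all genes were 30.6% at first and 9.12%, 0.782%, 0.0858%, 27.6% and 47.8% in these settings. Between Srf-knockdown and control NPCs at 0.5 kPa, where the count of members was 3 (18.5% of all genes), it was 0 at 2-fold (5.31%) and 1 with an FPKM above 5 (15.4%). At 12 kPa, where it was 2 (19.1% of all genes), it was 5 at 1.1-fold (73.6%), 1 at 2-fold (4.96%), 0 with an FPKM above 5 (16%) and 4 without a minimum (33.2%). The higher minimum leaves 3 of the 10 genes and drops Notch3 and Jag1. Of 36 ratios of single members, the 2 that changed sign in any of 5 settings were those of Heyl, each within counting error of 0 (0.02 to -0.02 between matrices in Srf-knockdown NPCs and 0.08 to -0.08 between populations at 12 kPa, under centring within GC bins). Scaling to the 75th percentile, centring on the median and a pseudocount of 0.1 moved 0 beyond counting error. Centring within GC bins moved 6, with Notch3 at 0.5 kPa at 0.54 and Notch1 at 12 kPa at -0.79 changing their side of the threshold, and a pseudocount of 1 moved 8, all in the direction of 0, among them Hey2 (-0.12 between matrices in Srf-knockdown NPCs and -0.14 between populations at 12 kPa) and Dll1 (0.41 at 12 kPa). It also brought Hey2 in control NPCs to 0.05 between matrices, within counting error but under the threshold. Centring within GC bins, chosen for the other pathway genes after their values were seen, changed their counts between populations from 7 higher and 3 lower to 3 and 2 at 12 kPa, and from 3 higher and 2 lower to 2 and 1 on both matrices. The longest transcript moved the estimated reads of Notch1 and Notch2 and of no other member beyond counting error. Depth limits what can be said of Hey2 and Hes5, and culture or library variation cannot be seen with 1 library per condition.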
